A study of Mus musculus with 30 samples.

Results

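The genes described here encode the proteasome and its helpers. They were every gene measured under a single symbol of the Psma, Psmb, Psmc, Psmd, Psme or Psmg series followed by a digit, pseudogenes left out, and they made up 49 of the 19937 genes tested (55 probe sets). Expression was measured on 30 microarrays in an Eμ-Myc lymphoma line from a C57BL/6J mouse. The Eμ enhancer restricts the Myc transgene to the B lineage, and all cultures, controls included, lacked Cdkn2a (Cdkn2a-/-) and grew on irradiated Cdkn2a-/- embryonic fibroblasts. Resistant lines R500, R1000 and R4000 were sampled once after 24 h of 750 nM mafosfamide, a cyclophosphamide derivative active in culture, and R100, R500, R1000 and R4000 once without drug. These lines came from successive steps of 1 dose escalation to 100, 500, 1000 and 4000 nM, so they are not independent derivations. Parental cultures received the same dose and were harvested before it (0 h) and after 6, 12, 24 and 48 h (n = 5, 4, 4, 5 and 5). Values are log2 expression as deposited. Probes of different genes differ in brightness, so levels are compared only within a gene.

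The proteasome degrades proteins that carry ubiquitin chains. Its core is a barrel of stacked rings, with alpha subunits at the gates and beta subunits, some of them catalytic, inside. A regulatory particle caps the barrel: its base holds a ring of ATPases that unfolds the substrate, and its lid removes ubiquitin. In lymphoid cells interferon-inducible catalytic subunits can replace the constitutive ones, which changes the peptides offered for display on MHC class I. Dedicated chaperones help both the barrel and the base to assemble, and they leave before the particle is complete.

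The alpha ring was represented by 8 genes, the constitutive beta ring by 7, and the catalytic subunits of the immunoproteasome and thymoproteasome by 4. The regulatory particle contributed 6 ATPases and 11 other subunits of base and lid, with 3 base chaperones. A further 4 genes encode activators that cap the barrel in place of the regulatory particle, and 4 encode chaperones of the barrel. The symbols Psmc3ip (a recombination factor) and Psme3ip1 (a partner of the activator Psme3) match by name and encode no subunit. Nearly all members gave clear signal, with means over the 30 arrays between 8.04 and 13.59. The exceptions were the testis subunit Psma8 (5.55) and Psmb11 (6.86), the catalytic subunit of the thymic cortex.

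The start regions of 41 of the 49 genes were found in the RefSeq promoter table (assembly GRCm38.p6, 250 bases before to 50 after each start). The 2 shown are those of Psmd5, the member that passed the test at 24 h, and of Psmb5, which encodes the chymotrypsin-like subunit and did not. Capitals mark matches, on either strand, to TGACNNNGC (the core of the antioxidant response element), CCAAT or GGGCGG (the SP1 box), or to a pair of GAAA blocks on 1 strand with 2 bases between them, as in interferon response elements. Psmd5 lies at chr2:34870913-34871212, minus strand, and Psmb5 at chr14:54617946-54618245, minus strand.
Psmd5: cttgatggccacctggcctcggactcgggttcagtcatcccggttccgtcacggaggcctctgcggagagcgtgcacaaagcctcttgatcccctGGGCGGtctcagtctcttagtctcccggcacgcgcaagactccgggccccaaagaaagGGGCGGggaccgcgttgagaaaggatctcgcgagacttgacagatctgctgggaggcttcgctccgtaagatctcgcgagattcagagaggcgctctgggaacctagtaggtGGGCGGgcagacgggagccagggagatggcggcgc
Psmb5: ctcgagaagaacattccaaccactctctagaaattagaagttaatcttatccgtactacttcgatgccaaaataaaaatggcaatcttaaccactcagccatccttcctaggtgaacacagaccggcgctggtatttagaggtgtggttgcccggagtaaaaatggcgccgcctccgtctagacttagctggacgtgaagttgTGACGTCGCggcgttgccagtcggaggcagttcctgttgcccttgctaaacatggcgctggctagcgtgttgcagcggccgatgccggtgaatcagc

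The Psmd5 window held 3 matches to GGGCGG and none to the other motifs, and the Psmb5 window held 1 match to TGACNNNGC. Among the 45 windows of the members, 6 (13.3%) held TGACNNNGC, against 12.4% of all 32851 windows in the table. GGGCGG was found in 25 of the 45 (55.6%), against 35.7% of all windows. CCAAT was found in 16 (35.6%, against 37.4%) and the pair of GAAA blocks in 5 (11.1%, against 3.4%): Psmb3, Psmd4, Psmd9, Psme1 and Psmg4. A match describes these letters only, and no match says only that they are not in this window.

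The cultures were bulk samples, so fewer cells of a type and less RNA per cell cannot be told apart. Of 11 B-lineage markers, 2 were called higher at 24 h and 0 lower: Igll1 averaged 11.56 at 24 h and 9.84 at 0 h (adjusted p = 0.00843), and Vpreb1 8.11 at 24 h and 7.21 at 0 h (adjusted p = 0.00829), both surrogate light chain genes of early B cells. Cd79a and Cd79b averaged 13.34 and 13.54 at 24 h, and 13.37 and 13.61 at 0 h, while Rag1 and Ebf1 differed by -0.55 (adjusted p = 0.37) and -0.18 (adjusted p = 0.112). The mean of 26 fibroblast markers per array, the feeder cells' signature, ranged from 8.04 to 9.56 at 24 h and from 7.83 to 8.31 at 0 h, and 12 of the 26 were called higher at 24 h. Means of 9 T and NK cell and 7 myeloid markers stayed between 5.94 and 7.05 on all arrays. The fifth 0 h array stood apart in its spread of values, with an interquartile range over all probe sets of 3.07 against 3.34 to 3.64 on the other arrays.

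To determine whether proteasome genes responded to mafosfamide, 24 h was compared with 0 h first, since it was the comparison with the most called genes. Of the 49 genes, 1 was called higher and 0 lower (limma, Benjamini-Hochberg adjusted p below 0.05 over all genes). Over all genes, 4.35% were called higher and 2.43% lower, so the members called were no larger a share than in the background. The median change of the members was 0.06, with 40 of 49 above 0, whereas the median over all genes was -0.04, with 42.9% above 0. Nearly all members are bright, however: 47 of the 49 lie at or above the median gene in mean level. Over the 9969 genes at or above it the median change was 0.056 with 63.7% above 0. For those 47 members it was 0.06 with 39 above 0. The members' median was thus close to that of bright genes, while a larger share of the members lay above 0. The changes lay between -0.12 (Psmb11) and 0.43 (Psmd5). For 48 of the 49 genes the 95% interval of the change stayed within 1.5-fold in either direction, as it did for 86.9% of all genes. The exception was Psmd5. No member had its 24 h arrays wholly above its 0 h arrays, which was so for 1.98% of all genes.

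**Figure D1:**
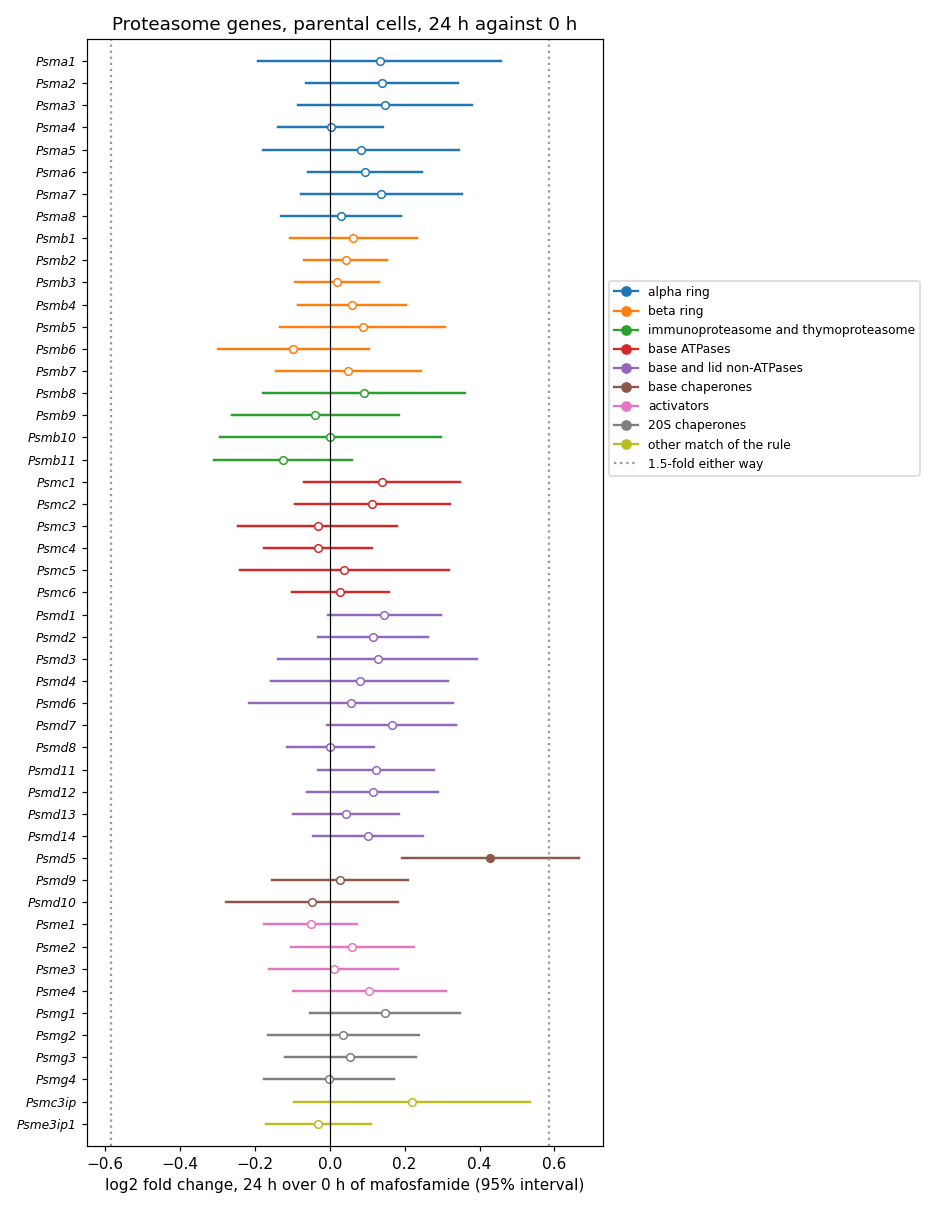
Log2 fold change of each of the 49 proteasome genes in parental cells, 24 h over 0 h of mafosfamide (n = 5 each), with its 95% interval from limma, coloured by role. The filled point (Psmd5, 0.43) passed the test, open points did not, and the intervals of the other 48 genes lie inside the dotted lines at 1.5-fold.

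Psmd5 encodes a chaperone of the base that binds an ATPase subunit until the base is assembled. Its values were 11.43, 11.35, 11.65, 11.73 and 11.52 at 24 h, and 11.36, 11.34, 10.92, 11.15 and 10.76 at 0 h. The groups overlapped only by the lowest 24 h array and the highest 0 h array. The log2 fold change was 0.43 (SE 0.11, 95% interval 0.19 to 0.67, 1.35-fold), with an adjusted p of 0.0309. With the mean fibroblast marker level as a covariate the change was 0.58 (adjusted p = 0.0259). The call was lost when the 24 h and 0 h arrays were fitted alone (adjusted p = 0.138), when arrays were centred on their medians (0.0562), and without 0 h replicate 3 (0.0781) or 5 (0.0866) or 24 h replicate 3 (0.0562) or 4 (0.0705).

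At the other times the Psmd5 values were 11.28, 11.76, 11.70 and 11.53 at 6 h, 11.34, 11.77, 11.62 and 11.61 at 12 h, and 11.27, 11.32, 11.45, 11.42 and 11.27 at 48 h. These comparisons share the 0 h arrays, so their sizes are not independent of each other. The changes against 0 h were 0.46 at 6 h (adjusted p = 0.292), 0.48 at 12 h (0.083) and 0.24 at 48 h (0.427), none of which passed. At 48 h against 24 h the difference was -0.19 (95% interval -0.43 to 0.05, adjusted p = 0.84).

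The sample descriptions carry a replicate number from 1 to 5, and deviations of arrays with the same number went together between 24 h and 0 h (correlations over genes 0.131 to 0.342 in 5 pairs). Psmd5 moved differently by number. In numbers 3, 4 and 5, 24 h minus 0 h was 0.73, 0.59 and 0.76, and in numbers 1 and 2 it was 0.07 and 0.01. The 6 h and 12 h arrays split likewise: 6 h minus 0 h was -0.06 in number 2 and between 0.56 and 0.83 in numbers 3 to 5, and 12 h minus 0 h was -0.01 in number 2 and between 0.47 and 0.85 in the others. The split was at 0 h as well as after it. The 0 h values of numbers 3 and 5, 10.92 and 10.76, were the lowest, on arrays with interquartile ranges of 3.36 and 3.07, against 3.57, 3.44 and 3.58 for numbers 1, 2 and 4. The part of the array spread in the change was not tested. With the number as a block, 2 members were called higher at 24 h: Psmd5 (adjusted p = 0.00956) and the alpha ring gene Psma3 (0.0332). Of all 19937 genes, 4711 were called in that fit, 2348 of them higher, which is a larger share than among the members. Psma3 is read by 3 probe sets, whose differences were 0.15, -0.07 and 0.26. Values given for Psma3 elsewhere, apart from ranks over all probe sets, are those of the first of these, the brightest.

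**Figure D2:**
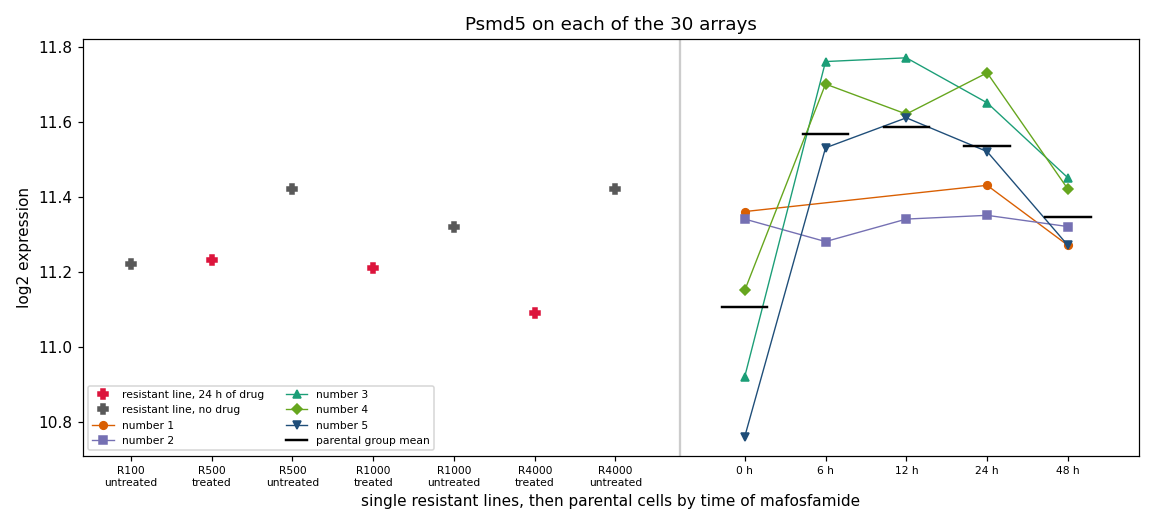
Log2 expression of Psmd5 on each of the 30 arrays. Parental arrays are placed by hours of mafosfamide and joined by the replicate number of the sample description, with black bars for group means. Numbers 3 to 5 start between 10.76 and 11.15 at 0 h and lie above 11.5 at 6, 12 and 24 h, while numbers 1 and 2 stay between 11.27 and 11.43. Single resistant lines stand to the left, and all 3 given drug are lower with it than without.

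No ring subunit passed the test at 24 h. Changes of the 8 alpha ring genes lay between 0.00 (Psma4) and 0.15 (Psma3), all at or just above 0, and those of the 7 constitutive beta ring genes between -0.10 (Psmb6) and 0.09 (Psmb5). Of the constitutive catalytic subunits, Psmb5 had a change of 0.09 (95% interval -0.13 to 0.31), Psmb6, the caspase-like subunit, one of -0.10 (-0.30 to 0.10), and Psmb7, the trypsin-like subunit, one of 0.05 (-0.14 to 0.24). Their immunoproteasome counterparts were as close to 0: Psmb8, which replaces Psmb5, had 0.09 (-0.18 to 0.36), Psmb9, which replaces Psmb6, had -0.04 (-0.26 to 0.19), and Psmb10, which replaces Psmb7, had 0.00 (-0.29 to 0.30). None of the 6 intervals reached 1.5-fold in either direction.

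The arrays of the catalytic genes differed more by replicate number than by time. Psmb8 read 10.67, 10.26, 10.83, 10.85 and 10.69 at 24 h, and 10.76, 10.43, 10.48, 10.68 and 10.48 at 0 h. The groups overlapped in part, with 2 of the 24 h arrays above all 0 h arrays and 1 below them. The number 2 array was the lowest at every time, and the 5 arrays of that number spanned 10.24 to 10.43. Psmb9 was highest in number 1, whose 3 arrays spanned 10.86 to 11.05, while all other parental arrays lay at or below 10.78. Psmb10 averaged 10.59 in number 1 and 10.40 in number 2, against 10.90, 10.91 and 10.83 in numbers 3, 4 and 5. Psmb5 ran the other way, with means of 13.26 and 13.12 in numbers 1 and 2, against 12.87, 12.90 and 12.83 in numbers 3, 4 and 5.

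**Figure D3:**
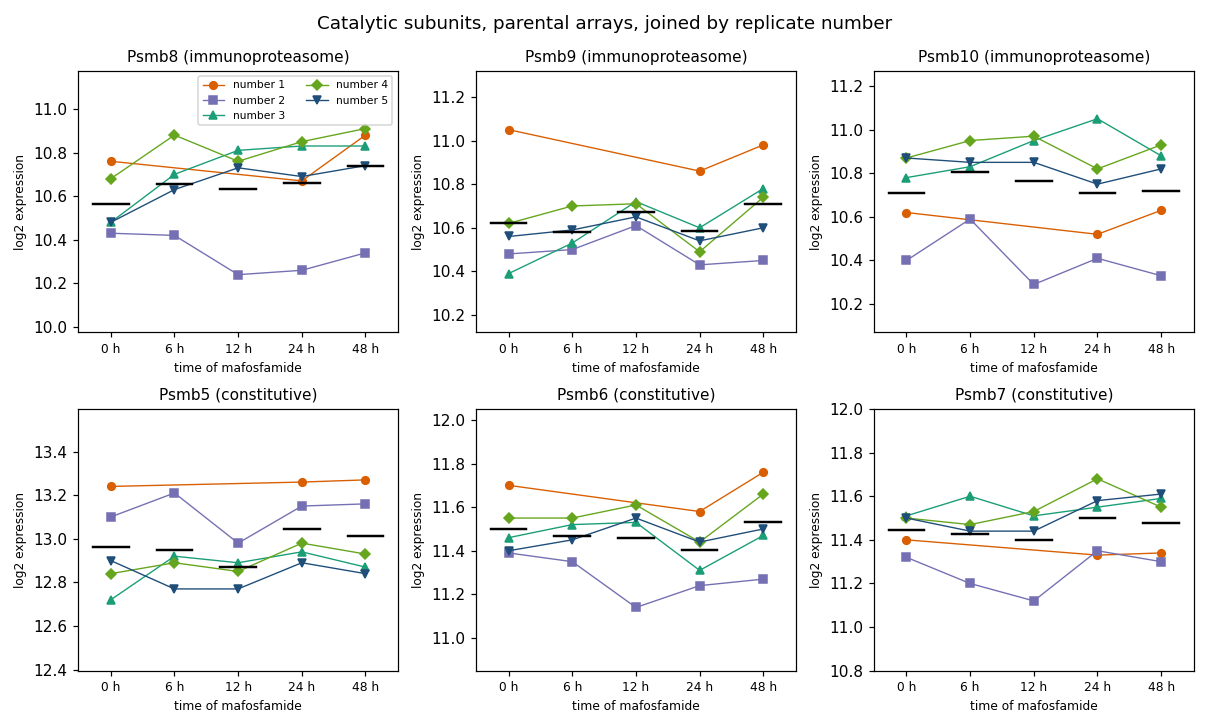
Log2 expression of the 3 immunoproteasome (upper row) and 3 constitutive (lower row) catalytic subunits on the 23 parental arrays, by hours of mafosfamide, joined by replicate number, with black bars for group means. Every panel spans the same range of log2 values. Psmb8 in number 2 (10.24 to 10.43) lies below the other lines of its panel. In number 1, Psmb9 (10.86 to 11.05) and Psmb5 (13.24 to 13.27) lie above the other lines of theirs. Psmb8 in number 3 is higher by 0.34 at 24 h than at 0 h.

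Subunits of the regulatory particle gave the same picture. The 6 ATPases changed by -0.03 (Psmc3) to 0.14 (Psmc1) at 24 h. The 11 other subunits of base and lid were all at or above 0, between 0.00 (Psmd8) and 0.17 (Psmd7), with a median of 0.11, and 0 of them passed. After Psmd5, the smallest p-values belonged to Psmd1, a scaffold of the base (0.15, 95% interval 0.00 to 0.30, adjusted p = 0.181), and Psmd7, the lid partner of the deubiquitinase Psmd14 (0.17, -0.01 to 0.34, adjusted p = 0.187). Psmd7 read 11.56, 11.68, 11.68, 11.66 and 11.66 at 24 h, and 11.58, 11.43, 11.52, 11.62 and 11.26 at 0 h. The other base chaperones, Psmd9 and Psmd10, differed by 0.03 and -0.05.

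None of the activators passed. Psme1 and Psme2, the interferon-inducible pair that caps the immunoproteasome, changed by -0.05 (95% interval -0.18 to 0.07) and 0.06 (-0.10 to 0.22) at 24 h. Psme3, the nuclear activator, changed by 0.01 (-0.16 to 0.18), and Psme4, which serves chromatin-associated proteasomes, by 0.11 (-0.10 to 0.31). The chaperones of the barrel, Psmg1 to Psmg4, differed by at most 0.15 (Psmg1), and 0 of them passed.

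At 6 h, 0 of the 49 genes passed in either direction, against 0.01% of all genes called higher and 0.01% lower. Psmd5 had the smallest p, followed by the barrel chaperone Psmg2 (0.13, adjusted p = 0.999) and Psma8 (0.10, adjusted p = 0.999). At 12 h again 0 members passed, where 0.466% of all genes were called higher and 0.0451% lower. Psmd5 was followed by Psmd7 (0.21, adjusted p = 0.38) and the barrel chaperone Psmg3 (0.18, adjusted p = 0.428). Psmd7 read 11.57, 11.79, 11.78 and 11.61 at 12 h, so that only part of these arrays lay above the highest 0 h array (11.62). At unadjusted p below 0.05, 1 of 49 members was higher at 6 h (3.29% of all genes were) and 2 at 12 h (6.9%), and 0 were lower (1.84% and 5.02% of all genes), which are not above the background. All 12 h and 48 h groups overlapped with 0 h for every member, while 1.71% of all genes lay wholly above 0 h at 12 h and 0.672% at 48 h.

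At 48 h, 44 of the 49 genes were above 0 with a median change of 0.07, whereas 43.9% of all genes were above 0 with a median of -0.02. Over the 9969 brighter genes the median was 0.052 with 65.6% above 0. The members' median also depended on single arrays, at 0.128 without 0 h replicate 1 and 0.05 without 0 h replicate 5. Still 0 members passed in either direction (0.11% of all genes called higher, 0.14% lower). At unadjusted p below 0.05, 4 were higher, where 5.23% of all genes were, and 0 were lower, where 6.43% of all genes were. The 4 were Psma8 (0.19, adjusted p = 0.358), Psmg2 (0.21, 0.408), the beta ring gene Psmb2 (0.11, 0.423) and Psmd5. Without 0 h replicate 1, 16 members were higher and 0 lower at that threshold. Over all 19937 genes the count in either direction was then 3884, against 2326 with that array. The 16 were thus a larger share of the members than the 3884 were of all genes. Without 0 h replicate 2, 3, 4 or 5 alone, 3, 1, 3 and 1 members were higher. Psma8 read 5.71, 5.46, 5.62, 5.63 and 5.73 at 48 h, and 5.22, 5.24, 5.54, 5.61 and 5.56 at 0 h, at the dim end of the array. All 49 intervals at 48 h stayed within 1.5-fold. Between 48 h and 24 h, 0 members were called (0.0251% of all genes higher, 0.0803% lower), and the members' differences lay between -0.19 (Psmd5) and 0.18 (Psmg2, adjusted p = 0.821). Psma8 had the smallest p there (0.16, adjusted p = 0.718).

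The proteasome genes differed more by replicate number than by time. The sum of squares over the 23 parental arrays was divided into a share for the replicate number, given time, and a share for time, given number. The number took a median of 56.5% of the members' sum of squares and time took 12.1%. Over all genes the medians were 31.4% for number and 22.0% for time, and over the brighter genes 37.0% and 22.1%. The number's share was the larger in 43 of the 49 members, against 63.3% of all genes and 66.4% of the brighter ones. It was highest for the alpha ring gene Psma1 (88.5%, time 5.3%), Psmb10 (86.3%, time 1.1%) and Psma3 (84.9%). Psmd5 was the opposite case, with 12.7% for number and 54.0% for time. The size of the spread was ordinary: the SD between arrays of the same time had a median of 0.14 in the members and 0.15 over all genes.

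**Figure D4:**
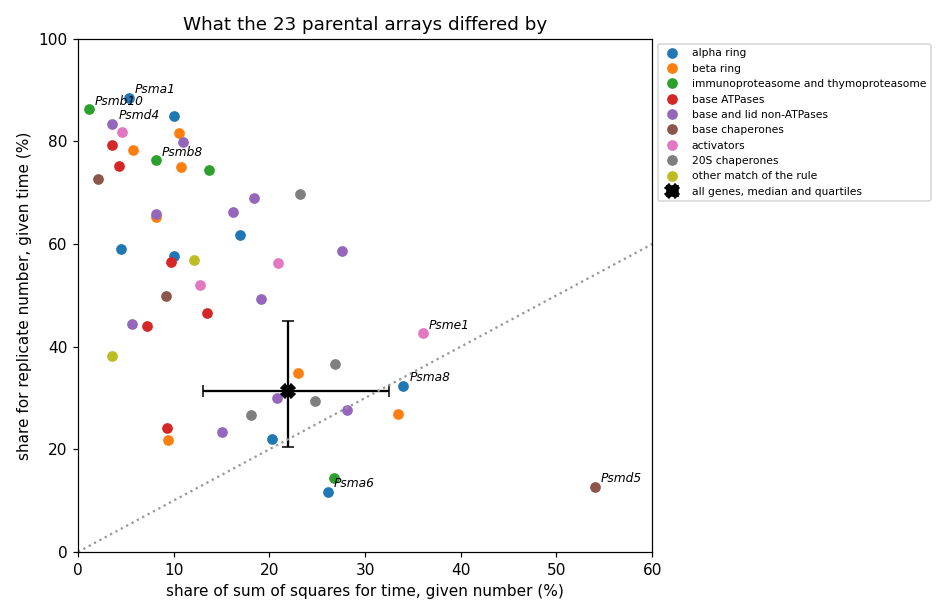
Share of each gene's sum of squares over the 23 parental arrays that went to time (horizontal, %) and to replicate number (vertical, %), each given the other, for the 49 proteasome genes, coloured by role. The cross marks the median and quartiles of all genes (22.0% and 31.4% at its centre). Points above the dotted diagonal, 43 of 49, differed more by number than by time, and Psmd5 stands alone at the right with 54.0% for time.

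Numbers 1 and 2 carried most of these differences. All 3 arrays of number 1 lay above the other 20 parental arrays for 4 members (Psma7, Psmb5, Psmb9 and Psmd6), against 2.2% of all genes, and below them for Psme3 alone, against 0.833%. All 5 arrays of number 2 lay below the other 18 for 7 members (Psmb1, Psmb8, Psmc3, Psmc5, Psmd3, Psmd4 and Psmd10), against 1.21% of all genes, and above them for 0, against 0.677%. No member stood apart in numbers 3, 4 or 5, where at most 0.0502% of all genes did in a direction. For Psmd4, the ubiquitin receptor of the base, number 2 spanned 9.97 to 10.16 and all other arrays lay at 10.18 or above. For Psme3, number 1 spanned 12.73 to 12.74 and all other arrays lay at 12.96 or above. Of the brighter genes, 4.08% lay above in number 1 and 2.35% below in number 2. These counts were made after the values were seen and members of 1 complex vary together, so no test was made of them.

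The small shift of the members at 24 h also depended on the number. At 24 h minus 0 h of the same number, the median over the members was 0.16 in number 3 (43 of 49 above 0), 0.08 in number 4 (34) and 0.22 in number 5 (43). In numbers 1 and 2 it was -0.10 (10 of 49 above 0) and -0.04 (20). Medians over all genes lay between -0.07 and 0.02 in the 5 numbers. Over the brighter genes they were 0.13, 0.01 and 0.25 in numbers 3, 4 and 5, and -0.07 and -0.04 in numbers 1 and 2. Brighter genes in general were thus also higher in numbers 3 and 5, and close to 0 in number 4. At 48 h the members' medians were 0.18, 0.10 and 0.18 in numbers 3, 4 and 5, and -0.06 and -0.03 in numbers 1 and 2. The median of the members over all 5 numbers therefore joined numbers whose medians lay on opposite sides of 0. The 0 h arrays of numbers 3 and 5 were those with the narrowest spread of values, and the part of that spread in the shift was not tested. Fibroblast markers moved with the split as well: their mean was 9.56 and 9.15 on the 24 h arrays of numbers 1 and 2, and 8.04, 8.85 and 8.63 in numbers 3, 4 and 5. With that mean as a covariate the members' median at 24 h was 0.126, with 9 members higher at unadjusted p below 0.05 against 1 without it. Without 0 h replicate 1 the median was 0.098 with 10, and 0 members were lower in either fit. The median was 0.042 without 0 h replicate 5, with 1 member higher at that threshold. Of all 19937 genes, 3641 passed that threshold in either direction with the covariate and 7060 without 0 h replicate 1, against 5871 with neither change. The members' share was thus near that of all genes with the covariate, and below it without 0 h replicate 1.

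Genes that work with the proteasome were drawn from lists of partners, regulators, ubiquitin, substrate delivery, peptide loading and interferon signalling, 31 genes in all. At 24 h, 3 were called higher and 1 lower. The first were Calr (0.38, adjusted p = 0.000997) and Pdia3 (0.47, adjusted p = 0.00207), members of the complex that loads peptides on MHC class I and general folding helpers of the endoplasmic reticulum. Calr read 13.07, 13.04, 13.08, 12.97 and 13.02 at 24 h, and 12.84, 12.59, 12.59, 12.71 and 12.56 at 0 h, without overlap. Pdia3 read 12.34, 12.46, 12.48, 12.36 and 12.40 at 24 h, and 12.18, 11.91, 11.99, 11.98 and 11.61 at 0 h, again without overlap. The peptide transporter gene Tap1 had a change of -0.01 (adjusted p = 0.961).

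Nfe2l2, which encodes the antioxidant regulator NRF2, was the other gene called higher at 24 h (0.55, adjusted p = 0.0166). It read 12.00, 12.22, 11.93, 11.96 and 11.96 at 24 h, and 11.83, 11.80, 11.27, 11.53 and 10.92 at 0 h. The groups did not overlap, and as for Psmd5 the lowest 0 h values were those of replicates 3 and 5. With fibroblast markers as a covariate its change was 0.42 and no longer passed (adjusted p = 0.178), nor did it without 0 h replicate 3 (0.0522). Nfe2l1, the gene of the regulator that restores proteasome genes when the proteasome is inhibited, had a change of -0.15 (adjusted p = 0.133). The interferon-gamma receptor chain Ifngr2 was called lower (-0.32, adjusted p = 0.0429), with 12.02, 11.70, 11.78, 11.86 and 11.94 at 24 h, and 12.03, 12.01, 12.35, 12.24 and 12.28 at 0 h. These groups overlapped, and the call was lost without either of 0 h replicates 3 and 5 or any 1 of 24 h replicates 2 to 5 (adjusted p = 0.0518 to 0.105), and in 15 of 26 alternatives in all, the fibroblast covariate (0.0519) and both groups fitted alone (0.135) among them. At the other times against 0 h, 0 of the 31 genes passed.

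To ask whether resistance came with a different proteasome, the 4 resistant lines without drug were set against the 5 parental 0 h arrays. Of the 49 genes, 0 were called higher and 0 lower, against 0.0201% and 0.0552% of all genes. The members' median difference was 0.05, against -0.01 over all genes. Among brighter genes it was 0.036 for the members and 0.031 for all. Over all 49 members it was 0.013 without R4000. All 49 intervals of 95% stayed within 1.5-fold, as did 90.9% over all genes. At unadjusted p below 0.05, 3 members were higher and 1 lower, where 4.18% and 2.91% of all genes were, so the members were near the background. The smallest p belonged to the barrel chaperone Psmg1, which read 11.14, 11.27, 11.16 and 11.22 in R100, R500, R1000 and R4000, and 11.13, 11.01, 10.65, 11.05 and 10.89 in parental cells. The lines lay above all parental arrays, by little (0.25, 95% interval 0.03 to 0.47, adjusted p = 0.616). Psme4 went the other way, with 11.66, 11.77, 11.63 and 11.72 in the lines and 11.83, 11.82, 11.83, 12.13 and 11.86 in parental cells (-0.20, -0.39 to -0.01, adjusted p = 0.677). The lid scaffold Psmd11 had a difference of 0.20 (0.00 to 0.40, adjusted p = 0.69), and its lid neighbour Psmd3 one of 0.19 (adjusted p = 0.691).

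Across roles, the resistant lines showed no common direction. The 8 alpha ring genes had a median difference of 0.13 and the 7 beta ring genes one of -0.13, with 6 of 8 and 1 of 7 above 0. Immunoproteasome genes lay close to their parental values: Psmb8 differed by 0.09 (95% interval -0.15 to 0.32), Psmb9 by -0.15 (-0.45 to 0.14) and Psmb10 by 0.05 (-0.19 to 0.30). Psmd5 differed by 0.24 (-0.04 to 0.52, adjusted p = 0.782). Of the 31 partner genes only Ifngr2 passed, at 11.56, 11.54, 11.54 and 11.67 in R100, R500, R1000 and R4000 (-0.60, adjusted p = 0.0446, from 0.0508 to 0.282 without any 1 of 0 h replicates 3, 4 and 5 or of the lines).

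Each line was also set against the range of the 5 parental arrays, with no test since each was measured once. In R100, 6 members (12.2%) lay above that range, against 11.6% of all genes, and 13 (26.5%) below it, against 10.1%. In R500, 12 members (24.5%) lay above, against 10.8% of all genes, and 5 (10.2%) below, against 11.8%. In R1000, 11 (22.4%) lay above, against 10.9%, and 6 (12.2%) below, against 12.5%. In R4000, 11 (22.4%) lay above, against 11.1%, and 2 (4.1%) below, against 13.5%. Over the brighter genes 9.47%, 12.3%, 14.4% and 17.4% lay above in R100, R500, R1000 and R4000, and 13.5%, 9.41%, 9.07% and 5.1% below. The median difference of the members was -0.02 in R100 and 0.07 in each other line, and that of brighter genes -0.02, 0.04, 0.03 and 0.09. Psma3, Psma4 and Psmg1 were above all parental arrays in all 4 lines (2.32% of all genes and 3.88% of the brighter ones were), and Psme4 was below them in all 4 (1.33% and 1.93%).

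The slope of expression over the steps of resistance, with parental cells as the lowest and R4000 as the highest, was called for 0 members, as for 0% of all genes in either direction. The smallest p-values were those of the lid gene Psmd3 (0.07 per step, adjusted p = 0.881), Psmg1 (0.08, 0.881) and Psmd11 (0.06, 0.881). None of the 55 member probe sets was among the 1000 of highest or the 1000 of lowest covariance with that order, out of 34760. The highest rank was 2116 (Psmd5) and the last was 29795 (Psme4). With the order of time the highest rank was 2711 (Psma3) and the last 22359 (Psmb11), so that again 0 were selected at either end.

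Resistant lines given mafosfamide for 24 h were compared with the same lines without it. Of the 49 genes 0 were called in either direction, against 0.0251% of all genes higher and 0.00502% lower. The smallest p-values were those of the beta ring genes Psmb3 (0.18, 95% interval 0.00 to 0.36, adjusted p = 1) and Psmb4 (0.22, -0.02 to 0.46, adjusted p = 1) and of Psma6 (0.21, -0.03 to 0.45, adjusted p = 1). Psmb4 read 12.81, 12.88 and 13.00 in treated R500, R1000 and R4000, and 12.72, 12.57 and 12.73 in the untreated lines. By direction alone, 22 members (44.9%) were higher with drug in all 3 lines, against 14.5% of all genes and 20.4% of the brighter ones, and 9 (18.4%) were lower in all 3, against 21.5% and 25.6%. The members' median was 0.07 in R500 and 0.05 in R1000 and R4000, and that of brighter genes -0.01, 0.02 and -0.04. In the fit 36 of the 49 members were above 0, against 43.2% of all genes and 46.6% of the brighter ones. The count depended on the centring: 28 with housekeeping centring (33.5% of all genes) and 38 with median centring (58.3%). All 7 beta ring genes were among the 36, between 0.02 (Psmb6) and 0.22 (Psmb4).

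The difference between the resistant and the parental response was called for 0 members and for 0% of all genes in either direction. It was largest for Psmd5, whose treated lines read 11.23, 11.21 and 11.09 and whose untreated lines read 11.42, 11.32 and 11.42 for R500, R1000 and R4000. Psmd5 was lower with drug in all 3 lines, by -0.20, -0.10 and -0.33, where the parental 24 h arrays were higher by 0.43. Fibroblast markers moved the same way: their mean was 7.68 to 7.96 in the treated lines and 8.04 to 9.56 on the parental 24 h arrays, and only 2 of the 26 had a difference in response above 0 (median -0.96). Between parental numbers the order was the reverse. In numbers 1 and 2, with 24 h marker means of 9.56 and 9.15, Psmd5 changed by 0.07 and 0.01. In numbers 3, 4 and 5, with means of 8.04, 8.85 and 8.63, it changed by 0.73, 0.59 and 0.76. No cause was tested. For Psmd5 the difference in response was -0.64 (95% interval -1.05 to -0.23), with an unadjusted p of 0.00467 and an adjusted p of 0.36. It did not pass over all genes. With the fibroblast mean as a covariate it was -0.81 (adjusted p = 0.953). In that fit 820 of all genes had an unadjusted p below 0.05, against 1562 without the covariate. Next by p were Psmd11 (-0.27, -0.55 to 0.01, adjusted p = 0.653) and Psma3 (-0.26, -0.59 to 0.07, adjusted p = 0.683). For 46 of 49 members the interval of this difference stayed within 1.5-fold, as for 65.7% of all genes. The exceptions were Psmd5, Psma3 and Psmc3ip.

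**Figure D5:**
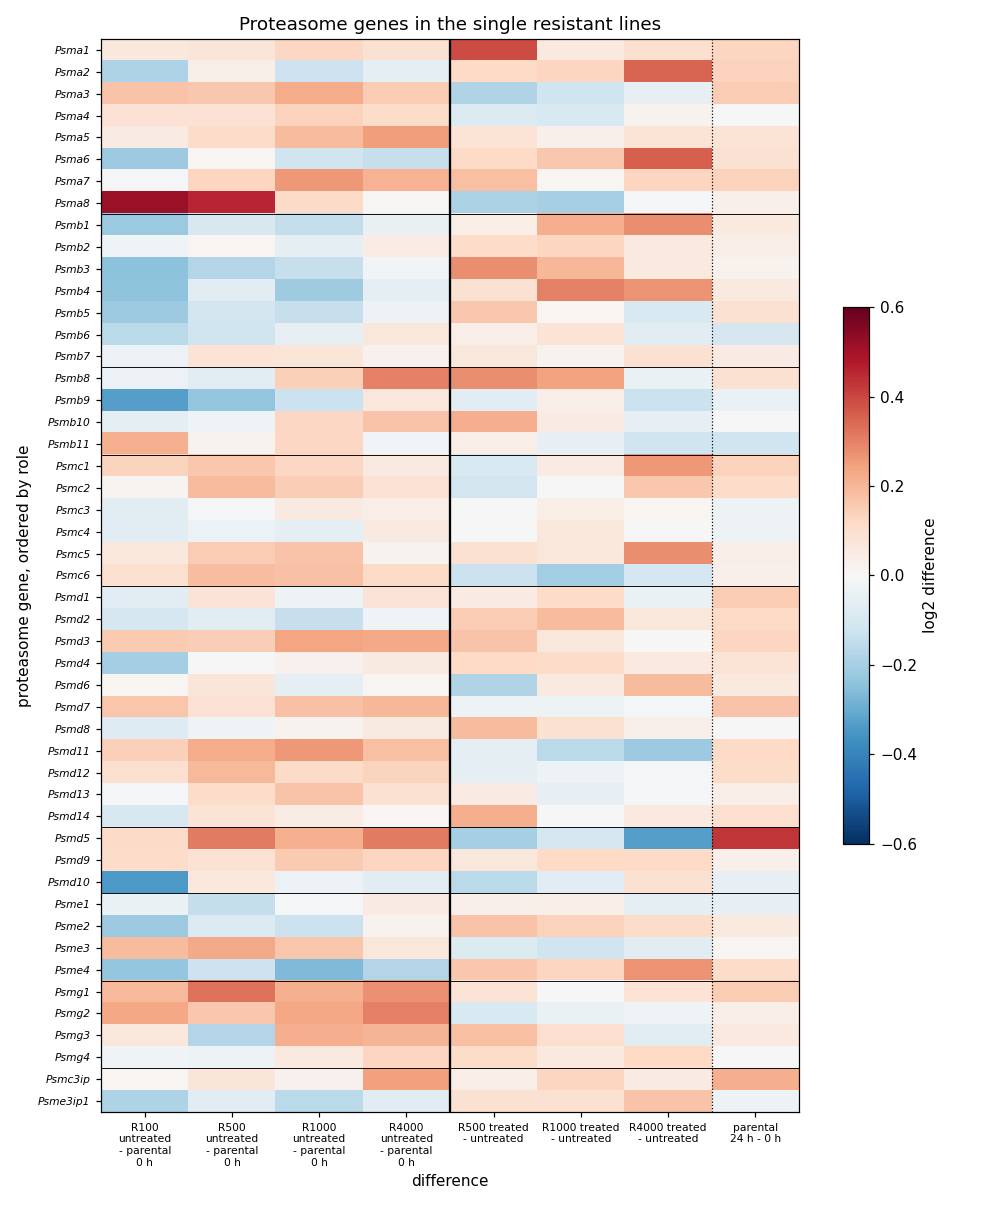
Log2 differences of the 49 proteasome genes (rows, by role) in single resistant lines: each untreated line minus the mean of 5 parental 0 h arrays, each treated line minus the same line untreated, and parental 24 h minus 0 h. Most cells lie near 0. Psmd5 is lower with drug in all 3 lines (-0.10 to -0.33) and higher in the parental line (0.43), and Psma8 has the highest value, 0.51 in R100.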

How the data were processed

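Cultures were profiled on Affymetrix Mouse Gene ST 1.0 arrays. The authors summarised probe sets by robust multi-array averaging (justRMA, affy package), and the deposited values are log2 expression, with arrays forced to a common distribution, which hides any shift shared by all transcripts. RMA, affy and the mm9 build are named in the submitters' processing notes. Of 34760 probe sets, 21640 had 1 symbol in the platform annotation, 1321 several and 11799 none there. The probe set with the highest mean stood for a gene. Array medians lay between 7.28 and 7.44, and the number of arrays limits the precision.

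Fits used limma 3.58.1 (lmFit, eBayes) in R 4.3.3 over all 19937 genes, with Benjamini-Hochberg adjustment and a threshold of 0.05, and were tested on simulated data. All 23 parental arrays were fitted together, untreated resistant lines with parental 0 h, and responses over 16 arrays with a term per line. Covariances were computed over all probe sets. The members, lists and tests were chosen with earlier results of these data known. Genes named are those called, the 3 smallest p-values per comparison, the catalytic subunits, the activators and called partner genes. Other genes were chosen after their values were seen. The labels call the arrays of a group biological replicates, and p-values measure the spread between these samples of 1 lymphoma line.

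Titles and descriptions number the 6 h and 12 h arrays differently (titles 1 to 4, descriptions 2 to 5). By description number, 41 of 43 same-number pairs had a correlation of deviations above 0.1 (0.065 to 0.773). Every pair passed for 6 h and 24 h against 0 h and for 48 h against 24 h, not for 12 h and 48 h against 0 h. The alternatives were other centring, filters, probe set means, weights, covariates, blocks, tests and arrays left out. Leaving out all arrays of 1 description number, and the shares and medians over genes at or above the median gene in mean level (the brighter genes), were added after the data were seen.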

Additional observations from a re-analysis of the deposited data

Results flagged for a closer look

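Among 24 named members and 5 parental groups, the ratio of the highest or lowest array's gap to the group's range passed Dixon's critical value in 15 of 120 groups, where chance gives about 1 in 20 for a single group. The genes are not independent, the share of such groups over all genes was not counted, and no cause was tested.

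One set of these single values far from the rest lay on arrays of number 1. Psme3 was low on that array at 0 h (12.73, others 13.02 to 13.10), 24 h (12.73, others 13.04 to 13.11) and 48 h (12.74, others 13.02 to 13.13). At 0 h Psma6 was high on it (12.77, others 12.38 to 12.45), as was Psmg3 (8.26, others 7.86 to 7.96). At 24 h Psme1 was high (11.58, others 11.32 to 11.38) and Psmd7 low (11.56, others 11.66 to 11.68).

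The arrays of description number 2 were low for Psmb8 at 12 h (10.24, others 10.73 to 10.81), Psmd3 at 12 h (10.61, others 11.25 to 11.30) and 48 h (10.91, others 11.27 to 11.39), Psme4 at 12 h (11.81, others 12.11 to 12.15), Psmd11 at 6 h (11.27, others 11.43 to 11.46), Psmb3 at 24 h (13.51, others 13.63 to 13.66) and Psme2 at 24 h (12.10, others 12.38 to 12.44). The remaining value was Psme4 in 0 h replicate 4, which was high (12.13, others 11.82 to 11.86).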

How the results depend on the processing

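Of the 18 counts of called members (9 comparisons, each direction), 15 were the same under every alternative run. At 24 h against 0 h the count called higher was 1. It was 0 after median centring and with both groups fitted alone, and 2 with description numbers as a block. Leaving out single arrays or all arrays of 1 description number gave 0 to 3. At 12 h it was 0, and 1 (Psmd5) after housekeeping centring, without dim genes, with array weights, with fibroblast markers as a covariate and with description numbers as a block, and 0 to 1 with arrays left out. At 48 h against 24 h it was 0, and 1 (Psmg2) with array weights. The description block, where its numbers pair the arrays, changed no other count of members, and the block by title number changed none. No paired analysis was possible for resistant against parental cells, because the lines carry number 1 only.

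Over all genes the block by description number raised the calls to 4711 at 24 h, against 1351 without it. The same pair of counts was 62 and 4 at 6 h, 708 and 102 at 12 h, 654 and 50 at 48 h, 208 and 21 at 48 h against 24 h, 26 and 6 for treated against untreated resistant lines, and 8 and 0 for the difference in response. The change of Psmd5 at 24 h kept its sign in all 26 alternatives, between 0.34 and 0.58, and lost its call in 9. Without all arrays of description number 3, 4 or 5 its adjusted p was 0.163, 0.0847 or 0.17. Of the partner genes at 24 h, Calr kept its call in all 26 alternatives, Pdia3 lost it in 1, Nfe2l2 in 5 and Ifngr2 in 15, and Ifngr2 in resistant lines lost it in 11 of 17. Signal on the arrays limits the dim genes Psma8 and Psmb11.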
